A study of Mus musculus with 23 samples.

Results

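The voltage-gated sodium channel subunits were described with every probe of 6 genes, *Scn1a*, *Scn2b*, *Scn3a*, *Scn3b*, *Scn4b* and *Scn8a*. The array annotation named 6 probes for 5 of these genes, of 25697 probes in all: 2 for *Scn3b* (ILMN_1215136 and ILMN_1227604) and 1 each for *Scn1a* (ILMN_2762701), *Scn2b* (ILMN_2935462), *Scn4b* (ILMN_2813547) and *Scn8a* (ILMN_2721059). No probe was named for *Scn3a*, which was not analysed here. RNA came from hippocampus, cortex and cerebellum of naïve male mice on a C57BL/6 background, 3 to 5 months old and fasted overnight, that were either wildtype (WT) or *Bhlhe40* KO. The KO mice lack the transcription factor Bhlhe40 in every cell and throughout development. There were 4 WT and 4 KO arrays of hippocampus, 4 and 4 of cortex, and 3 WT and 4 KO of cerebellum, with each replicate from a different mouse and the 3 tissues from the same mice.

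A voltage-gated sodium channel is built from 1 large alpha subunit, which forms the pore and opens when the membrane depolarizes, and from smaller beta subunits, which span the membrane beside it and set its gating and its place in the membrane. The alpha subunit of *Scn1a* is the main sodium channel of fast-spiking inhibitory interneurons and is also made by Purkinje cells, and that of *Scn8a* gathers at the axon initial segment and at nodes of Ranvier, where action potentials start and are renewed. The beta subunits of *Scn2b* and *Scn4b* are held to the alpha subunit by a disulfide bond, while that of *Scn3b* is not, and the *Scn4b* subunit takes part in the resurgent current of Purkinje cells.

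Promoter windows from RefSeq (build GRCm38.p6, from 250 bases before to 50 bases after a transcript start) were found for 4 of the 6 genes, *Scn1a*, *Scn2b*, *Scn4b* and *Scn8a*. Those of *Scn8a* and *Scn4b* are shown since these are the genes that differed between WT and KO in cerebellum, in opposite directions. *Scn8a* has one window at chr15:100870395-100870694 and another at chr15:100936021-100936320, and *Scn4b* has its window at chr9:45138374-45138673, all on the plus strand. Capitals mark matches to the E-box core CANNTG, a sequence that reads the same on both strands.
Scn8a, first start: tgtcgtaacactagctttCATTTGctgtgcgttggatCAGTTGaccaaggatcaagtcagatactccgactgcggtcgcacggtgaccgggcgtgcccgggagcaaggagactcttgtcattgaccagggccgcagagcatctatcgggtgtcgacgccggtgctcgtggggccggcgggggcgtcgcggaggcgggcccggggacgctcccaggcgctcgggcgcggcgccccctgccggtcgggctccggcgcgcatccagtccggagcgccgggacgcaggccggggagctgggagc
Scn8a, second start: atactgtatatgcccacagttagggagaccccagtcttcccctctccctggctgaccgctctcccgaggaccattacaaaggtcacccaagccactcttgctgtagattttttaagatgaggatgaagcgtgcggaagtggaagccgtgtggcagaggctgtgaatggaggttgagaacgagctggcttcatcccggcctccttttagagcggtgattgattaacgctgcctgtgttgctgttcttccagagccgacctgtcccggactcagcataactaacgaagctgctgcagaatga
Scn4b: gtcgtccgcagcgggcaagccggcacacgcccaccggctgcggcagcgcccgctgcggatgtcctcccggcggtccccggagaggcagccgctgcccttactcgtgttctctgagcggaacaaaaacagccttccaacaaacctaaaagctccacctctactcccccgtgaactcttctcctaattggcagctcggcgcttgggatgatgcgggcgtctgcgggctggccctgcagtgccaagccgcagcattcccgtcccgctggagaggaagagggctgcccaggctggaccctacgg
The *Scn8a* windows held 2 and 0 matches to CANNTG, and the *Scn4b* window held 0. The windows of *Scn2b* and *Scn1a*, which are not shown, held 3 and 2. CANNTG occurred in 72.3% of the 32851 promoter windows of the genome. None of the 5 windows of these genes held CACGTG, the form of the E-box that Bhlhe40 is known to bind, which occurred in 7.15% of all windows. The study measured binding itself, by ChIP-Seq of Bhlhe40 in WT hippocampus, and reports no occupancy of *Scn1a*.

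The median bead signal of the arrays was 164.4 to 267.9, and 50.9% to 55.5% of the probes were detected on each. The KO minus WT difference of *Bhlhe40* itself was -3.70 (log2) in hippocampus, -4.15 in cortex and -3.38 in cerebellum, with no overlap between WT and KO, and its probe was still detected in every KO array. The tissues carried their own markers: the summed level of granule cell markers was 36507 to 52135 in cerebellum (6 probes) and at most 2559 in hippocampus and 1623 in cortex, where 4 and 3 of these probes passed the detection filter, and the summed level of hippocampal markers was 12743 to 14332 in hippocampus and at most 1763 in cortex. Choroid plexus markers were higher in KO hippocampus (12 of 12 probes, of 9 genes) and KO cerebellum (11 of 12 probes, of 8 genes). Of all probes tested, 6.59% and 18.5% were higher in these tissues. The levels of the choroid plexus markers are given beside the subunits below. These are whole tissues, in which fewer cells of a type and less RNA per cell cannot be told apart.

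*Scn8a* was lower on the arrays of KO hippocampus and KO cerebellum. In hippocampus its log2 level (the log2 bead signal, Z normalized within each array and brought back to the log2 scale) was 9.89, 10.03, 10.05 and 9.81 in WT replicates 1 to 4, and 9.55, 9.71, 9.59 and 9.34 in KO replicates 1 to 4. Every KO array lay below every WT array. The KO minus WT difference was -0.40 (standard error 0.093, 1.32-fold, adjusted p = 0.0136 from limma over 14369 probes, 0.00673 to 0.104 over 21 alternative settings). In cerebellum the level was 9.89, 9.90 and 10.22 in WT and 9.46, 9.72, 9.61 and 9.32 in KO, again with no overlap. This difference was -0.48 (standard error 0.117, 1.39-fold, adjusted p = 0.00337 over 13800 probes, 0.0014 to 0.991 over 20 settings). In cortex the WT arrays held 10.35, 10.04, 10.26 and 10.15 and the KO arrays 10.31, 10.29, 10.25 and 9.97, which overlapped. The cortical difference was 0.00 with a 95% interval of -0.21 to 0.22 (adjusted p = 0.994 over 14163 probes). The study also tested *Scn8a*, *Scn3b* and *Scn1a* by quantitative RT-PCR, in hippocampi that included the other side of these mice. It reports *Ide* as the only tested gene that was significantly lower in KO hippocampus.

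*Scn1a*, the other alpha subunit with a probe, had lower values in KO hippocampus but missed the threshold. Its log2 level was 9.94, 9.44, 9.30 and 9.42 in WT hippocampus and 9.18, 9.21, 9.01 and 9.24 in KO hippocampus. All KO arrays lay below all WT arrays, and WT replicate 1 stood highest. The difference was -0.37 (standard error 0.117, adjusted p = 0.0506). It was -0.02 in cortex (adjusted p = 0.976, 95% interval -0.25 to 0.22) and -0.23 in cerebellum (adjusted p = 0.0951), where KO levels of 9.88 to 10.24 overlapped WT levels of 10.19 to 10.48 and the difference passed without WT replicate 1 (-0.30, adjusted p = 0.0419). The hippocampal difference passed in 6 of 21 alternative settings. Among them were quantile normalization (-0.40, adjusted p = 0.0264), neqc (-0.51, adjusted p = 0.0217) and the fit without WT replicate 3 (-0.44, adjusted p = 0.0336). The 6 also include the replicate block (adjusted p = 0.0273), which does not pair the mice. They include the looser thresholds of the study too, at which adjusted p was still 0.0506. Adjusted p ranged from 0.0217 to 0.517 over the 21 settings. Without WT replicate 1, the highest array, it was -0.23 (adjusted p = 0.161), and with the choroid plexus covariate described below it was -0.24 (adjusted p = 0.517). The quantitative RT-PCR of the study went the other way, with *Scn1a* significantly higher in KO hippocampus. At the protein level, by western blot, the study found no significant difference in Scn1a there.

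**Figure D1:**
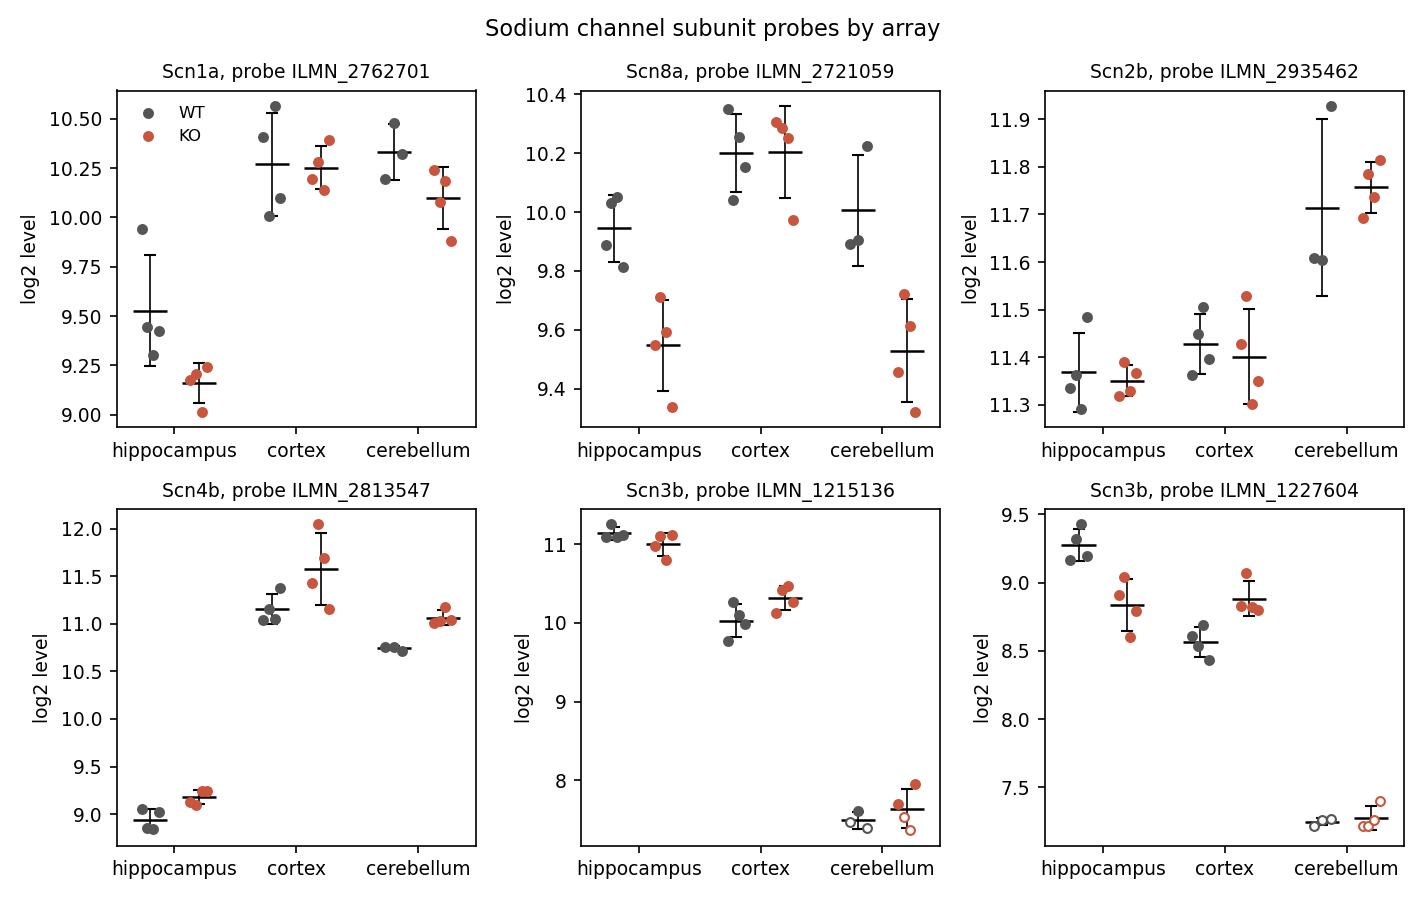
Log2 level of the 6 sodium channel probes (vertical axes) in each array of hippocampus, cortex and cerebellum, WT in grey and KO in red; open points are arrays in which the probe was not detected at p under 0.05, and black bars are the group mean ± SD. *Scn8a* KO arrays lie below WT in hippocampus and cerebellum and overlap WT in cortex, and both *Scn3b* probes are lowest in cerebellum.

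*Scn4b* was higher in KO cerebellum. Its log2 level was 10.75, 10.76 and 10.72 in the WT arrays and 11.01, 11.03, 11.18 and 11.05 in the KO arrays, and every KO array lay above every WT array. The difference was 0.32 (standard error 0.089, 1.25-fold, adjusted p = 0.00747, 0.00365 to 0.700 over 20 settings). In hippocampus the WT levels of 9.05, 8.85, 8.84 and 9.02 also lay below the KO levels of 9.13, 9.10, 9.24 and 9.24. That difference of 0.24 did not pass (standard error 0.091, adjusted p = 0.0992). In cortex the level was 11.04, 11.15, 11.05 and 11.38 in WT and 11.43, 12.05, 11.69 and 11.16 in KO. The cortical groups overlapped, through WT replicate 4 and KO replicate 4, and the difference of 0.43 did not pass (standard error 0.135, adjusted p = 0.337).

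The 2 probes of *Scn3b* differed in what they showed. Probe ILMN_1227604 was lower in KO hippocampus, with log2 levels of 9.17, 9.32, 9.43 and 9.19 in WT and 8.91, 9.04, 8.60 and 8.79 in KO. The difference was -0.44 (standard error 0.104, 1.36-fold, adjusted p = 0.0144), and no arrays overlapped. Without KO replicate 3 it was -0.36 and no longer passed (adjusted p = 0.0552), and adjusted p ranged from 0.0048 to 0.219 over 20 alternative settings. Probe ILMN_1215136 held 11.09, 11.25, 11.09 and 11.12 in WT hippocampus and 10.98, 11.10, 10.80 and 11.11 in KO hippocampus, which overlapped. Its difference was -0.14 (standard error 0.081, adjusted p = 0.288). The annotation gives both probes to the same gene, and where each lies in the transcript was not given in the sources used here. The gap between the probes within an array moved by -0.30 from WT to KO hippocampus (exact permutation test over arrays, two-sided p = 0.0286, the smallest that 4 against 4 arrays allow, and 0.0571 after adjustment over the 2 tissues tested), a test chosen after the values had been seen.

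In cortex the *Scn3b* values of KO mice leaned the other way, without passing. Probe ILMN_1227604 was 8.61, 8.54, 8.69 and 8.43 in WT and 8.83, 9.07, 8.82 and 8.80 in KO, with no overlap and a difference of 0.31 (adjusted p = 0.354). Probe ILMN_1215136 was 9.77 to 10.27 in WT and 10.13 to 10.47 in KO, a difference of 0.29 (adjusted p = 0.424). In cerebellum ILMN_1227604 was detected in 0 of 7 arrays and was not tested. The other probe was detected in 1 of 3 WT and 2 of 4 KO arrays, and its difference of 0.15 did not pass (adjusted p = 0.250), though it did without KO replicate 3 (0.24, adjusted p = 0.0431).

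*Scn2b* gave nearly the same level in WT and KO. It held 11.29 to 11.49 in WT and 11.32 to 11.39 in KO hippocampus, 11.36 to 11.51 and 11.30 to 11.53 in cortex, and 11.60 to 11.93 and 11.69 to 11.81 in cerebellum. The differences were -0.02 (95% interval -0.17 to 0.13), -0.03 (-0.21 to 0.15) and 0.04 (-0.16 to 0.25), with adjusted p of 0.901, 0.947 and 0.770.

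**Figure D2:**
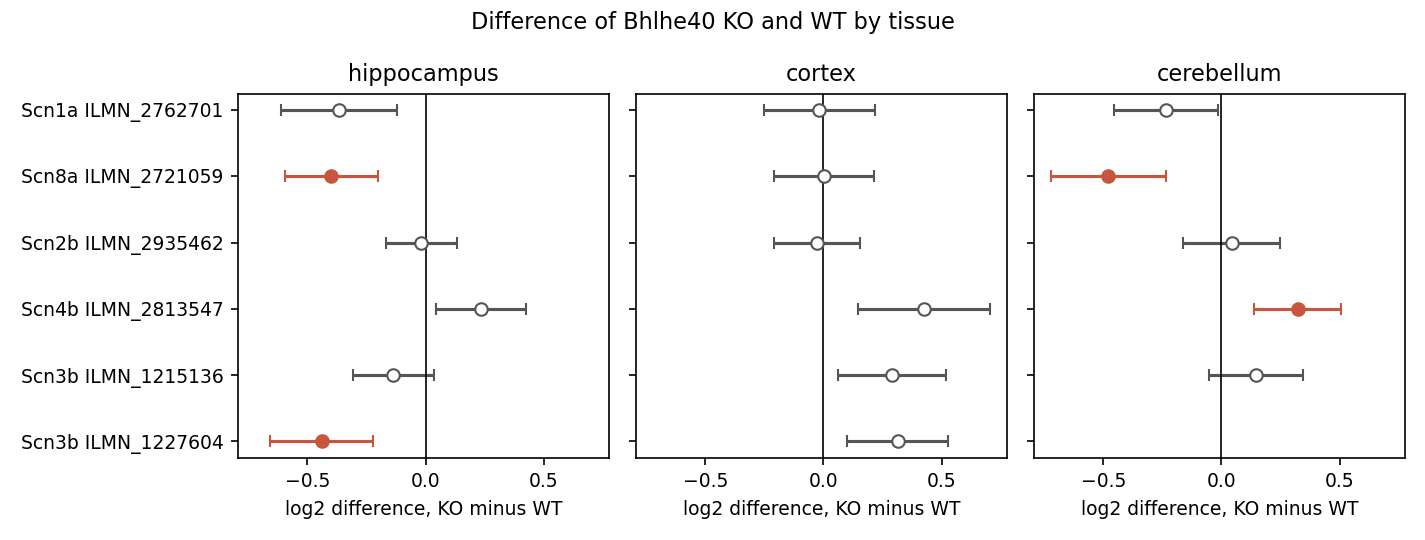
Log2 difference of KO and WT (horizontal axis) for each sodium channel probe in the 3 tissues, with its 95% interval; filled red points passed an adjusted p under 0.05 and probe ILMN_1227604 was not tested in cerebellum. The points that passed are *Scn8a* (-0.40) and *Scn3b* ILMN_1227604 (-0.44) in hippocampus, and *Scn8a* (-0.48) and *Scn4b* (0.32) in cerebellum.

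In all, 2 of the 6 probes tested were lower and 0 higher in KO hippocampus, where 4.72% of all probes tested were lower and 6.59% higher. In cortex 0 of 6 probes passed in either direction, where 0.106% of all probes were higher and 0.0847% lower (3 of the 6 had an unadjusted p under 0.05, and the unmoderated test also called 0). In cerebellum 1 of 5 probes was higher and 1 lower, where 18.5% of all probes were higher and 15.3% lower, a background close to the subunits' share. Groups without overlap were also counted over the array: in hippocampus 7.84% of all probes were lower and 8.55% higher in every KO array than in every WT array, in cortex 2.43% and 1.74%, and in cerebellum 17.8% and 20.4%. The median difference of the subunit probes was -0.25 in hippocampus, 0.15 in cortex and 0.04 in cerebellum, beside medians of 0.00, -0.01 and 0.01 over all probes tested.

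Choroid plexus markers moved with genotype in the tissues where *Scn8a* was lower. Their mean log2 level over 12 probes was 8.59, 7.80, 9.62 and 7.95 in WT hippocampus and 9.94, 9.73, 10.96 and 9.15 in KO hippocampus, and it was 9.05, 9.23 and 8.64 in WT cerebellum and 10.00, 9.60, 10.05 and 9.92 in KO cerebellum. The groups overlapped in hippocampus, through WT replicate 3, and did not overlap in cerebellum. Summed over the list, the level was 3185 to 49612 in WT and 28633 to 61435 in KO hippocampus, and 20005 to 33067 in WT and 38305 to 59113 in KO cerebellum, and none of the 9 genes with a probe was undetected in either tissue. With this mean as a covariate, hippocampal *Scn8a* was -0.52 (adjusted p = 0.104), hippocampal *Scn3b* ILMN_1227604 -0.41 (adjusted p = 0.219), cerebellar *Scn8a* 0.01 (adjusted p = 0.991) and cerebellar *Scn4b* 0.21 (adjusted p = 0.700), and no subunit passed. In cerebellum the covariate and genotype cannot be told apart. Purkinje cell markers are the list of the cells known for *Scn8a* and *Scn4b*. Their mean log2 level was 11.64 to 11.86 in WT and 11.48 to 11.69 in KO cerebellum. Of their 4 probes there, 2 were lower and 1 higher in KO. GABAergic interneuron markers had 2 of 7 probes higher and 0 lower in KO hippocampus, beside 6.59% and 4.72% of all probes. Pan-neuronal markers had 1 of 6 probes higher and 1 lower in KO hippocampus. In KO cerebellum 3 of 6 pan-neuronal probes were higher and 1 lower, beside 18.5% and 15.3% of all probes.

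Markers of striatal projection neurons, in which *Scn4b* is abundant, moved with *Scn4b* among the cortex arrays. The mean log2 level of 10 probes of this list was 8.90, 9.52, 9.14 and 9.25 in WT cortex and 9.24, 9.97, 9.85 and 9.06 in KO cortex. KO replicates 2 and 3 were highest in both the markers and *Scn4b*. The summed level of the list was 6891 to 11566 in WT and 8872 to 19723 in KO cortex, all 8 genes with a probe passed the detection filter, and 0 of the 10 probes passed the test between genotypes. With the marker mean as a covariate the cortical *Scn4b* difference was 0.21 (adjusted p = 0.663) in place of 0.43. Without KO replicate 2, and with no covariate, the difference was 0.27 (adjusted p = 0.895). In hippocampus *Scn4b* lay higher in every KO array without passing. There the mean of the list was 8.47 to 8.56 in WT and 8.63 to 8.70 in KO. In KO hippocampus 3 of 9 probes were higher, of the 2 genes *Ppp1r1b* and *Syndig1l*, beside 6.59% of all probes. *Drd1* (-0.11) and *Rgs9* (-0.19) leaned lower there without passing. In cerebellum, where *Drd1* and *Drd2* were not detected, the mean of the list was 8.71 to 8.94 in WT and 8.87 to 9.18 in KO. There 3 of 7 probes were higher, beside 18.5% of all probes. The brightest *Ppp1r1b* probe was at 11.77 over the cerebellum arrays and 11.83 over the cortex arrays, so it did not set cortex apart. The part of the marker lists in the subunit differences was not tested beyond these covariates.

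**Figure D3:**
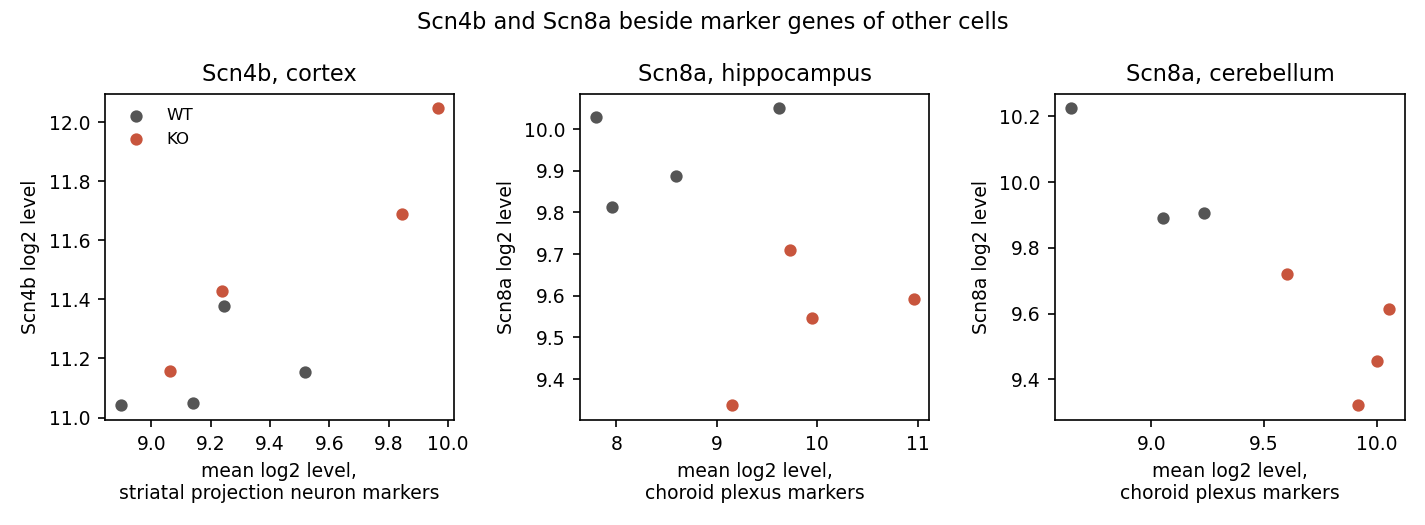
Log2 level of *Scn4b* in cortex and of *Scn8a* in hippocampus and cerebellum (vertical axes) against the mean log2 level of marker genes of other cells in the same arrays (horizontal axes), 1 point for each array, WT in grey and KO in red. In cortex the 2 arrays highest in *Scn4b* (12.05 and 11.69) are highest in striatal markers, and in cerebellum WT and KO are apart on both axes.

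The subunit genes differ in length, and so did the probes of the whole array in how they stood between genotypes. *Scn1a* (170 kb, chromosome 2) and *Scn8a* (176 kb, chromosome 15) are long genes, and *Scn2b* (12.2 kb), *Scn4b* (15.5 kb) and *Scn3b* (22.4 kb), all on chromosome 9, are short. None lies on chromosome 6, which carries *Bhlhe40*. Across all probes with a known length, Spearman's rho of length with the KO minus WT difference was -0.36 in hippocampus (13532 probes), 0.21 in cortex (13324) and -0.33 in cerebellum (12997), where genes are not independent replicates. Of the probes of genes over 100 kb, 9.91% were lower in KO hippocampus and 20.8% in KO cerebellum, against 3.86% and 14.4% of the others. With the trend on length removed from each array, *Scn8a* was -0.33 in hippocampus (adjusted p = 0.0393) and -0.41 in cerebellum (adjusted p = 0.00786), *Scn4b* was 0.28 in cerebellum (adjusted p = 0.0151) and *Scn3b* ILMN_1227604 was -0.44 in hippocampus (adjusted p = 0.0195), so that all 4 still passed.

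**Figure D4:**
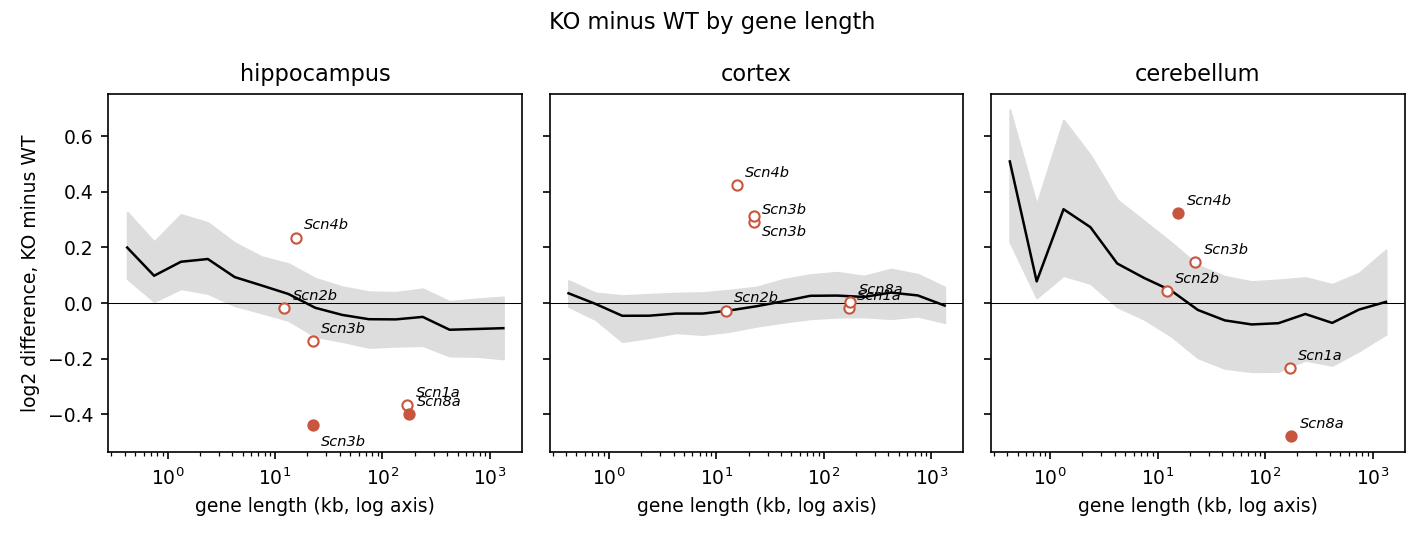
Log2 difference of KO and WT (vertical axis) against gene length in kb (horizontal log axis) in each tissue; the line and the grey band are the median and the quartiles of all probes in bins of length, and red circles are the sodium channel probes, filled where adjusted p was under 0.05. *Scn8a* lies at -0.40 and -0.48 in hippocampus and cerebellum, below the band, and at 0.00 in cortex.

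The effect of genotype on *Scn3b* and *Scn8a* differed between tissues. For *Scn3b* ILMN_1227604 the KO effect was lower in hippocampus than in cortex (log2 difference of the effects -0.75, standard error 0.131, adjusted p = 0.0124, limma with all arrays in one fit and the mouse as a random block), and it was the only one of the 6 probes to pass in this contrast, where 3.85% of all probes passed. The other *Scn3b* probe gave -0.43 (adjusted p = 0.0970), *Scn8a* -0.40 (adjusted p = 0.0951) and *Scn1a* -0.35 (adjusted p = 0.207). For *Scn8a* the KO effect was higher in cortex than in cerebellum by 0.48 (standard error 0.152, adjusted p = 0.0185), the only one of the 6 to pass where 26.5% of all probes did. Without WT mouse 2, WT mouse 4 or KO mouse 1 that value was 0.43, 0.36 and 0.42 and did not pass, with adjusted p of 0.0531, 0.129 and 0.0646. Between hippocampus and cerebellum 0 of the 6 probes passed, where 1.29% of all probes did (1 of the 6, *Scn3b* ILMN_1227604, had an unadjusted p under 0.05, and it is not detected in cerebellum). The *Scn8a* difference in this contrast was 0.08 with a 95% interval of -0.23 to 0.39.

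Tissue levels were also compared within WT mice. *Scn4b* was highest in cortex (11.16 ± 0.16, SD, n = 4), lower in cerebellum (10.74 ± 0.02, n = 3) and lowest in hippocampus (8.94 ± 0.11, n = 4). WT hippocampus was 4.64-fold below cortex (adjusted p = 4.92e-16) and 3.49-fold below cerebellum (adjusted p = 6.02e-14), and cerebellum was 1.33-fold below cortex (adjusted p = 0.00598, and 0.0817 without WT mouse 4). *Scn3b* was highest in hippocampus, where *Scn4b* was lowest. Probe ILMN_1215136 was at 11.14 ± 0.08 in hippocampus, 10.03 ± 0.21 in cortex and 7.49 ± 0.11 in cerebellum, so that hippocampus was 2.15-fold above cortex (adjusted p = 2.41e-09). It was detected in 1 of 3 WT cerebellum arrays, which makes it at least 11.6-fold higher in hippocampus (adjusted p = 2.54e-22) and at least 5.39-fold higher in cortex (adjusted p = 4.27e-18) than in cerebellum. Probe ILMN_1227604 was at 9.28 ± 0.12 in hippocampus and 8.57 ± 0.11 in cortex (1.64-fold, adjusted p = 4.27e-07) and was not above background in cerebellum (7.25 ± 0.03), which makes it at least 3.24-fold higher in hippocampus than in cerebellum (adjusted p = 1.18e-17) and at least 1.98-fold higher in cortex (adjusted p = 6.8e-13). These bounds set the mean of the bright group against, on each dim array, the higher of the probe itself and the lowest level among detected probes. Under neqc the log2 differences of cerebellum from hippocampus were -5.55 (ILMN_1215136) and -4.04 (ILMN_1227604) in place of -3.65 and -2.03.

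*Scn1a* was lower in WT hippocampus (9.53 ± 0.28, n = 4) than in cortex (10.27 ± 0.26) and cerebellum (10.33 ± 0.14, n = 3). The difference from cortex was 1.67-fold (adjusted p = 1.43e-05) and from cerebellum 1.74-fold (adjusted p = 3.57e-06), while cortex and cerebellum differed by 0.06 with an interval of -0.20 to 0.32. *Scn2b* was at 11.71 ± 0.19 in cerebellum, 11.43 ± 0.06 in cortex and 11.37 ± 0.08 in hippocampus, with cerebellum above hippocampus by 1.27-fold (adjusted p = 0.000816) and above cortex by 1.22-fold (adjusted p = 0.00492), and neither passed with median centring (adjusted p = 0.0842 and 0.0818), nor did the step from cortex without WT mouse 4 (0.17, adjusted p = 0.149). *Scn8a* was at 10.20 ± 0.13 in cortex, 10.01 ± 0.19 in cerebellum and 9.94 ± 0.11 in hippocampus, and none of its 3 WT differences passed (adjusted p = 0.0706 for hippocampus against cortex, which became 0.046 without WT mouse 2, 0.0407 without KO mouse 4 and 0.047 with the mouse as a fixed block).

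Counted over probes, 4 of 6 differed between WT hippocampus and cortex (23% of all probes), 5 of 6 between cerebellum and hippocampus (51.8%) and 4 of 6 between cerebellum and cortex (49%). In KO mice the counts were 4 of 6 (43%), 5 of 6 (55.1%) and 5 of 6 (61.5%). The 5 probes that differed between cerebellum and hippocampus were the same in WT and KO, those of *Scn1a*, *Scn2b*, *Scn3b* and *Scn4b*. *Scn8a*, which differed between no tissues in WT, was lower in KO hippocampus than in KO cortex by 0.66 (1.58-fold, adjusted p = 7.01e-06) and lower in KO cerebellum than in KO cortex by 0.68 (1.60-fold, adjusted p = 1.18e-06), where the tests of the genotype effect between these tissues gave the adjusted p of 0.0951 and 0.0185 above. *Scn3b* ILMN_1227604, which was 1.64-fold higher in hippocampus than in cortex of WT mice, held 8.84 ± 0.19 and 8.88 ± 0.13 in the same tissues of KO mice (difference -0.04, adjusted p = 0.733).

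Among arrays of the same group the subunits showed little shared variation. After the mean of each of the 6 groups was taken off, Pearson's r between probes over the 23 arrays ran from -0.48 (*Scn8a* with *Scn3b* ILMN_1215136) to 0.37 (the 2 *Scn3b* probes), as a description of arrays that share mice and normalization. Over all 23 arrays, which pool the 3 tissues, r also takes in the differences between tissues. There the pattern most like that of *Scn4b* belonged to *Ppp1r1b* (r = 0.95), which encodes the striatal phosphoprotein DARPP-32. Next were *Cpne9* and *Dpp10* (both 0.94), and Spearman's rho for the 3 genes was 0.87, 0.73 and 0.79. For the brighter *Scn3b* probe, ILMN_1215136, the nearest were *Sertm1* (0.996), *Crtac1* (0.99) and *St6galnac5* (0.99), for *Scn1a* *Rims1*, a scaffold of the presynaptic active zone (0.94), *Abcd2* (0.94) and *Dpp10* (0.93), for *Scn8a* *Eif2b5*, *Spcs3* and *Kif21a* (0.91 to 0.93), and for *Scn2b* *Mapre2*, *Jaml* and *Tssk5* (0.92 each).

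The probes of other genes that pass sodium ions at the membrane were near background. Of 9 further channel genes, the 4 with a probe were *Scn7a*, *Scn10a*, *Scn11a* and *Nalcn*, and they were detected in 0 of 23 arrays, apart from *Scn10a* in 2 of 8 cortex arrays. None was tested. Genes for proteins that hold, traffic or cut the channel were more often detected. They include ankyrins and spectrins, which anchor channels at the axon initial segment, neural adhesion molecules, fibroblast growth factor homologues that bind the alpha subunit, the ubiquitin ligases of the Nedd4 group and the protease Bace1, which cleaves beta subunits. In hippocampus 5 of 34 probes of this list were lower and 0 higher in KO, beside 4.72% and 6.59% of all probes. Of the probes of genes over 100 kb, 9.91% were lower and 1.91% higher there. The part of gene length in the partner list was not tested. In cortex 0 of 35 passed, beside 0.0847% lower and 0.106% higher. In cerebellum 7 of 32 were lower and 3 higher, beside 15.3% and 18.5% of all probes, so that the share of lower probes was near the background.

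In hippocampus the partner genes past the threshold were all lower in KO. They were *Fgf13* (-0.42, adjusted p = 0.00705) and *Ank3*, which encodes the ankyrin of the initial segment (-0.39, adjusted p = 0.00876). Next came *Ank2* (-0.33, adjusted p = 0.0237) and *Cntn1*, a contactin that binds the channel complex (-0.29, adjusted p = 0.0302). Outside the rule of the 4 largest was *Sptbn1* (-0.27, adjusted p = 0.0369). *Fgf13*, *Ank3* and *Ank2* each had 1 of 3 tested probes past the threshold, *Sptbn1* 1 of 4, and *Cntn1* its only probe. For *Ank3* the probe that passed was the brightest. The brightest probes of *Fgf13* (-0.18, adjusted p = 0.163), *Ank2* (-0.22, adjusted p = 0.078) and *Sptbn1* (-0.20, adjusted p = 0.186) did not pass. In cerebellum the largest falls were in *Sptbn1* (-0.71 and -0.55, 2 of 4 probes), *Bace1* (-0.69), *Nedd4l*, a ligase that marks sodium channels for removal (-0.46), and *Nrcam*, an adhesion molecule of nodes and initial segments (-0.45). *Cntnap1*, the paranodal partner of contactin, was higher (0.51, adjusted p = 0.000325), as was the matrix protein gene *Tnc* (0.31 and 0.25, 2 of 3 probes). These probes were dim, with mean log2 levels over the cerebellum arrays of 7.97 (*Cntnap1*), 7.70 and 7.79 (*Tnc*). The lowest level among detected probes there was on average 7.58 in WT and 7.60 in KO. The median difference of the list was -0.09 in hippocampus, 0.05 in cortex and -0.09 in cerebellum. Whether the partner genes differed between tissues in their KO effect was not tested.

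**Figure D5:**
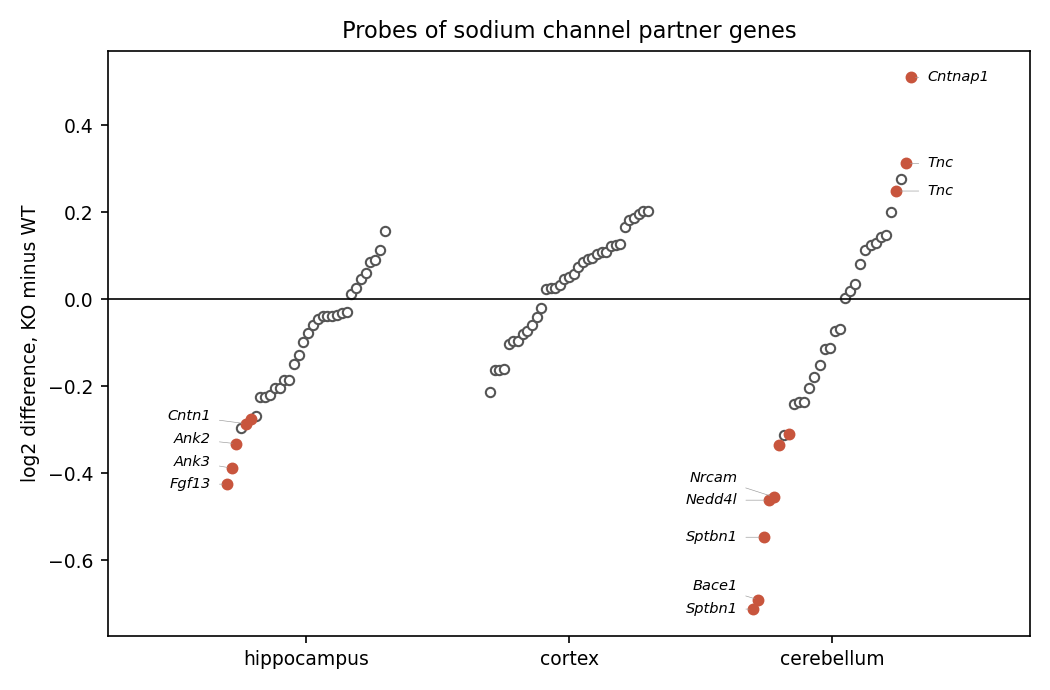
Log2 difference of KO and WT (vertical axis) for each tested probe of the sodium channel partner genes, sorted within each tissue; filled red points passed an adjusted p under 0.05, and the genes with the largest passing differences are named. The passing probes are 5 lower in hippocampus, none in cortex, and 7 lower and 3 higher in cerebellum.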

How the data were processed

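Each tissue's RNA was amplified with a biotin label and read on an Illumina mouse Ref8 v2 BeadChip. The authors read the intensity of each bead type with GenomeStudio 2011.1 and deposited it without background subtraction, together with a detection p-value for each probe. They also deposited a score table, the Z score of the log signal of each array, which matched a recomputation to within 9.96e-05 and served as an alternative. The deposited tables held 0 columns of other samples. Probes were named through the platform annotation with symbols updated by Entrez identifier: 23978 of 25697 had 1 symbol and 1719 had none.

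All fits used limma 3.58.1 under R 4.3.3. The log2 intensity was Z normalized within each array, then multiplied by the mean SD (1.57) and shifted by the mean (8.43) of all arrays. A probe was tested in a tissue if its detection p was under 0.05 in at least 3 arrays of that tissue. KO was compared with WT by lmFit and eBayes with a trend in each tissue alone. Tissue differences and differences of the KO effect were contrasts over all 23 arrays, on the 15219 probes detected in at least 3 arrays of any tissue, with the mouse as a random block (consensus correlation 0.0048). P-values carry a Benjamini-Hochberg adjustment over all probes tested in a comparison, and an adjusted p under 0.05 passed. The sodium channel genes, their partners and the marker lists were chosen with earlier results of these data known. The genes named were all probes of the channel subunits, the partner genes past the threshold (at most 4 in each direction and tissue, by size), the 3 genes most like each subunit by Pearson's r, and marker genes of other cells. The computation was tested on simulated data. Mouse codes in the labels tied tissues to mice, but nothing paired WT with KO mice. The cerebellum of 1 WT mouse was not analysed here. An array has no read depth, and the number of arrays limits the precision. Alternatives were other normalizations, detection filters, 1 probe for each gene, an unmoderated test, the thresholds of the study, covariates for marker means and gene length, block terms, and leaving out each array or mouse.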

Additional observations from a re-analysis of the deposited data

Results flagged for a closer look

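The effect of genotype on *Scn3b* probe ILMN_1227604 differed between hippocampus and cortex by -0.75 on the log2 scale, and that on *Scn8a* differed between cortex and cerebellum by 0.48, both by a test of the difference itself in limma. In KO cortex the *Scn8a* level of replicate 4 (9.97) stood below the other 3 arrays, which held 10.25 to 10.31. In the same group the *Scn3b* ILMN_1227604 level of replicate 2 (9.07) stood above the other 3, which held 8.80 to 8.83. Both were found by Dixon's ratio over 30 groups of 4 arrays, and chance marks about 1 in 20 groups.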

How the results depend on the processing

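Of 925 values of single probes under alternatives, 895 kept their side of the threshold. A further 14 gained the call, 15 lost it with the sign kept, and 1 lost it with the sign turned. The sign turned in 38 values, of which 37 belonged to differences that passed in neither setting, and the other was cerebellar *Scn8a*, at 0.0098 with the choroid plexus mean as a covariate. Under neqc the *Scn3b* ILMN_1227604 difference of the KO effect between hippocampus and cortex was -1.13 in place of -0.75. Of 159 counts, 145 stayed within 1.5 times. In hippocampus the 2 probes that passed became 1 with 1 probe for each gene, 0 in the unmoderated test and 0 with the choroid plexus covariate, and 4 at the thresholds of the study, and leaving out 1 array gave 1 to 3. In cerebellum the count of 2 became 1 in the unmoderated test and 0 with the choroid plexus covariate. For the difference of the KO effect, hippocampus against cerebellum gave 1 in place of 0 under quantile normalization, cortex against cerebellum gave 0 in place of 1 under median centring and 0 to 1 without 1 mouse, and hippocampus against cortex gave 0 in place of 1 among probes detected in every tissue, a set that does not hold *Scn3b* ILMN_1227604. WT cerebellum against cortex gave 2 to 4 without 1 mouse. The cause was not tested where none is named. Median centring moved the share of higher calls over all probes from 58.3% to 73.2% in hippocampus (995 calls in place of 1625) and from 54.6% to 75.1% in cerebellum (3424 in place of 4667).

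With the replicate number as a block, 3 probes passed in hippocampus (*Scn1a* in addition, adjusted p = 0.0273), 0 in cortex and 2 in cerebellum. The numbers name different mice, and arrays of the same number correlated at -0.337 to 0.281 in their deviations, so they do not pair the samples. Few arrays and bead signals near background, as for *Scn3b* in cerebellum, limit what can be seen.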
